A study of Mus musculus with 4 samples.

Results

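Bidirectional promoter intervals are the stretches between the start of a gene on the minus strand and the start of the next gene on the plus strand, where the genes point away from each other. The members were chosen by start positions in the mouse annotation table of the series (build mm10 with a ribosomal DNA contig). Among its rows with a coding part on the 21 assembled chromosomes, the most upstream start of each symbol was taken. A minus start followed within 0 to 1000 bases by a plus start of another symbol gave an interval. This found 819 intervals of 10488 minus starts that had a later plus start, with 1632 of 20992 coding symbols (7.77%) at 1 or more of them. The lengths below are thus values that the choice itself used, and they are given as a description with no test.

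The study mapped Pol I (RNA polymerase I) with CUT&Tag, in which an antibody brings a transposase to chromatin, in C64, a line of mouse embryonic stem cells. Its 4 libraries fall in 2 groups, 2 from cells given auxin at 500 nM for 6 h and 2 from control cells with no treatment. The labels state neither which protein auxin was meant to deplete nor whether the replicates were separate cultures. Signal and depth of these libraries are not part of what was analysed here, so no level or difference between auxin and control is given for any interval.

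In a bidirectional promoter, RNA polymerase II starts on both sides of a shared nucleosome-poor stretch, which in mammals usually lies in a CpG island. Such promoters are known from housekeeping genes, above all those of DNA repair, translation and mitochondria, and the classical promoter element, the TATA box, is rare in them. Pol I itself transcribes the ribosomal DNA repeats, so the genes described here are templates of another polymerase.

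Intervals of 9 pairs are shown because they can be read whole, from the minus start to the plus start, in the RefSeq promoter table of GRCm38.p6 and hold genes with well studied roles. They were taken from a list of candidate head-to-head pairs by the rule given with the processing. Each line gives the plus strand, 5′ to 3′, with the minus gene (named first) running off the left end and the plus gene off the right end. Capitals mark matches, on either strand, to 10 short motifs that are spelled out with the motif counts.
Brca1 and Nbr1 (chr11:101551956-101552106): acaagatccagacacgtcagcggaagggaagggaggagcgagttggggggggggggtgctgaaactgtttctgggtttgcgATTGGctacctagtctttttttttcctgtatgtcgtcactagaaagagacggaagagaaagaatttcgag
Wrap53 and Trp53 (chr11:69580251-69580358): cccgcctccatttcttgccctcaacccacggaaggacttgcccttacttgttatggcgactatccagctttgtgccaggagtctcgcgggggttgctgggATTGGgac
Ranbp1 and Trmt2a (chr16:18248695-18248882): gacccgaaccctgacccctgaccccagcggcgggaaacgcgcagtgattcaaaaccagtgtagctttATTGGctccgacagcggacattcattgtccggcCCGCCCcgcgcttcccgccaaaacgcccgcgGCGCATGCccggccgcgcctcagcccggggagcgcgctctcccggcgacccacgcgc
Psmb9 and Tap1 (chr17:34187331-34187555): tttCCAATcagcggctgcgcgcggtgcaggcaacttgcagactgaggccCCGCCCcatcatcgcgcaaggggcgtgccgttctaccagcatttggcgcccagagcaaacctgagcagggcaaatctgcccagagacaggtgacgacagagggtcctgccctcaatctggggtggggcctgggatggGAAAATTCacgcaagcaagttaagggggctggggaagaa
Sirt3 and Psmd13 (chr7:140882310-140882393): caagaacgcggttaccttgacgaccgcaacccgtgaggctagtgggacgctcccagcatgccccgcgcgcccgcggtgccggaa
Mrps12 and Sars2 (chr7:28741822-28741967): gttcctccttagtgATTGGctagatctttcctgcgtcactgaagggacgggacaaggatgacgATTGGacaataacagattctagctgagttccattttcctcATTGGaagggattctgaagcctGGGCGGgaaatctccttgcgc
Palb2 and Dctn5 (chr7:122132947-122133040): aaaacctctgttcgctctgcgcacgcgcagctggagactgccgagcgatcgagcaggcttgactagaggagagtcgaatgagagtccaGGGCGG
Tsc2 and Nthl1 (chr17:24632628-24632681): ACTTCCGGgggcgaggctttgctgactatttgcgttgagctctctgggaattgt
Toe1 and Mutyh (chr4:116807560-116807733): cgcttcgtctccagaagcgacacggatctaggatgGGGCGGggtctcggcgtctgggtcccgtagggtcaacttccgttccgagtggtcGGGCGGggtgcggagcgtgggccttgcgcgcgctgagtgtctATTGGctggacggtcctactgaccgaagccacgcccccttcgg

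Among these 9 sequences, a CCAAT box, the site of the factor NF-Y, was found in 6. The interval of Mrps12 and Sars2, which encode a protein of the small mitochondrial ribosomal subunit and the mitochondrial seryl-tRNA synthetase, held 3 CCAAT boxes, all read toward the minus gene. Only Tsc2 and Nthl1 showed the ETS site, and Ranbp1 and Trmt2a alone held the NRF1 core. None of the 10 motifs was found between Sirt3, a mitochondrial deacetylase gene, and Psmd13, a proteasome subunit gene. GC content of these 9 intervals lay between 49.3% (Mrps12 and Sars2) and 70.2% (Ranbp1 and Trmt2a).

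Most intervals were short. The median length was 155 bases with quartiles of 74 and 299, and the mean was 227 ± 214 bases (SD over 819 intervals). Of all intervals, 277 (33.8%) were at most 100 bases, 491 (60.0%) at most 200, 615 (75.1%) at most 300 and 717 (87.5%) at most 500. In steps of 20 bases the fullest was 60 to 79 bases, with 82 intervals. The 100-base steps held 273 intervals below 100 bases and 218 from 100 to 199, against 17 from 800 to 899 and 11 from 900 to 999. Past the limit, steps of 100 bases between 1000 and 5000 held a median of 10 gaps (range 5 to 16). Counts had thus levelled off before the limit of 1000 bases.

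**Figure D1:**
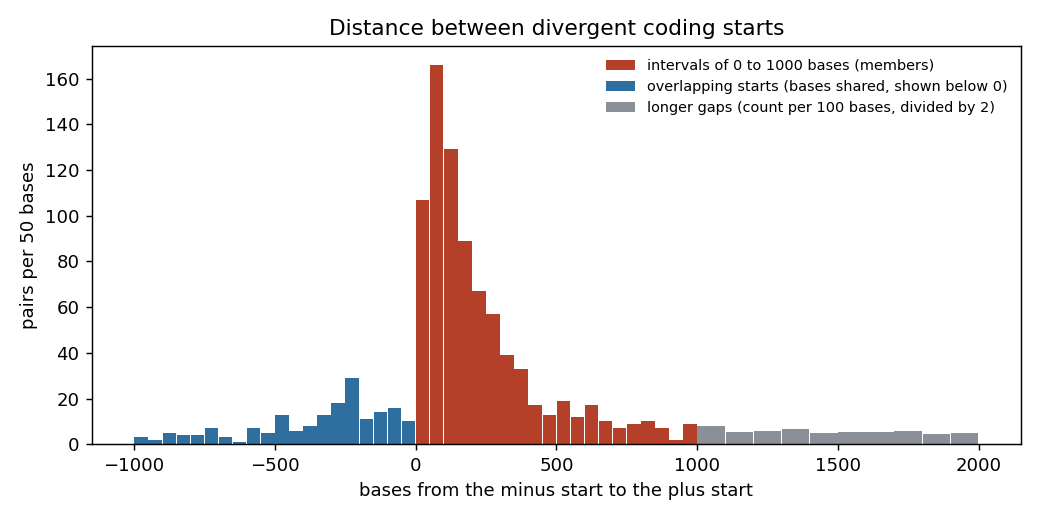
Number of divergent pairs of coding starts by distance in bases, in bins of 50 bases; intervals of 0 to 1000 bases in red, overlapping starts in blue left of 0, and longer gaps in grey with counts per 100 bases divided by 2. The red bars are tallest between 50 and 100 bases and level off before 1000 bases.

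At the short end, Capza1, a subunit of the actin capping protein, and St7l on chromosome 3 started at adjacent bases (104864505 and 104864506), as did Tcta and Rhoa, a small GTPase of the cytoskeleton, on chromosome 9 (108306159 and 108306160). Snx5 and Mgme1, a nuclease of mitochondrial DNA, were 1 base apart. The pairs 2810004N23Rik and Gnpat, and Hars and Hars2, were 3 bases apart each. At most 10 bases separated 16 pairs (1.95%). At the long end, Zfyve26 and Rad51b, a gene of recombination repair, were 999 bases apart on chromosome 12, and Haghl and Ccdc78 were 993. Tns1 and Rufy4 (992 bases), P3h4 and Fkbp10 (977 bases) and Sirt6 and Ankrd24 (973 bases) followed. Just outside the limit lay Ddias and Prcp at 1005 bases, Serpina7 and 4930513O06Rik at 1006, and Sgsm2 and Tsr1 at 1010.

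The surplus of short distances can be set beside the other orientations of neighbouring, non-overlapping loci in the same rows. Of 4655 divergent neighbour pairs, 793 (17%) were within 1000 bases and 595 within 300. Of 4314 convergent pairs, 627 (14.5%) were within 1000 bases but 268 within 300. Of 10498 tandem pairs, 505 (4.81%) were within 1000 bases and 142 within 300. Among the gaps within 1000 bases, the median was 155 bases for divergent pairs, 377 for convergent and 512 for tandem. Taken over all gaps the divergent order had the largest median, 22145 bases, against 9329.5 for convergent and 18459.5 for tandem pairs. The surplus of divergent pairs was thus at short gaps, and 111 of their gaps were over 1000 and up to 2000 bases. Convergent pairs had 349 and tandem pairs 476 gaps of that size, out of the unlike totals given above.

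The distances rest on annotated starts. In 539 pairs (65.8%) both genes had a single start in the table, and their median interval was 164 bases, against 134 bases in pairs with alternative starts. With the most downstream start of each gene, 666 of the 819 pairs (81.3%) were still within 1000 bases. A single start was listed for 80.9% of the genes at an interval and for 83.0% of other coding genes. No start of a non-coding row of another symbol lay inside an interval, and 1 interval, the 713 bases between Cd160 and Pdzk1 on chromosome 3, was touched by such a row (4930442L01Rik). In 6 cases a plus start was shared by 2 minus symbols. Utp4, a nucleolar factor of ribosome assembly, stood 46 bases from both Chtf8 and Derpc, and Cox4i1, a subunit of cytochrome c oxidase, lay 137 bases from Emc8 and 82 from Gm27021. Ubr7 (Gm20604 and Gon7, 164 bases each), Trim23 (Shld3 379 bases, Trappc13 372 bases) and Cab39l (Setdb2 and Gm45935, 82 bases each) were similar. Brcc3, whose product removes ubiquitin chains in DNA repair complexes, lay 43 bases from both Cmc4 and Mtcp1.

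Intervals were found on 20 of the 21 chromosomes. Chromosome 11 had the most, 72, followed by chromosome 7 with 65 and chromosome 2 with 63. Relative to gene content, chromosome 12 was highest, with 12.4% of its coding symbols at an interval, followed by chromosomes 13 (10.7%), 8 (10.5%), 5 (9.71%) and 17 (9.54%). The lowest shares were on X (18 intervals, 3.88%), 18 (12 intervals, 4.77%) and 6 (27 intervals, 4.93%), and Y had none among 77 coding symbols. Olfactory and vomeronasal receptor genes lie in large clusters and none of their 1450 symbols was at an interval. Without them the share over all other coding symbols was 8.35%. It became 8.57% on chromosome 2 and 8.34% on chromosome 7, while X stayed low at 3.91%. On chromosome 13, histone genes carried part of the count, and without them 61 of 739 symbols (8.25%) were at an interval. Median lengths by chromosome ranged between 119.5 bases (chromosome 19) and 264.5 bases (chromosome 10). Consecutive intervals were a median of 1.03 Mb apart, and 62 (7.57%) were within 50000 bases of the one before.

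**Figure D2:**
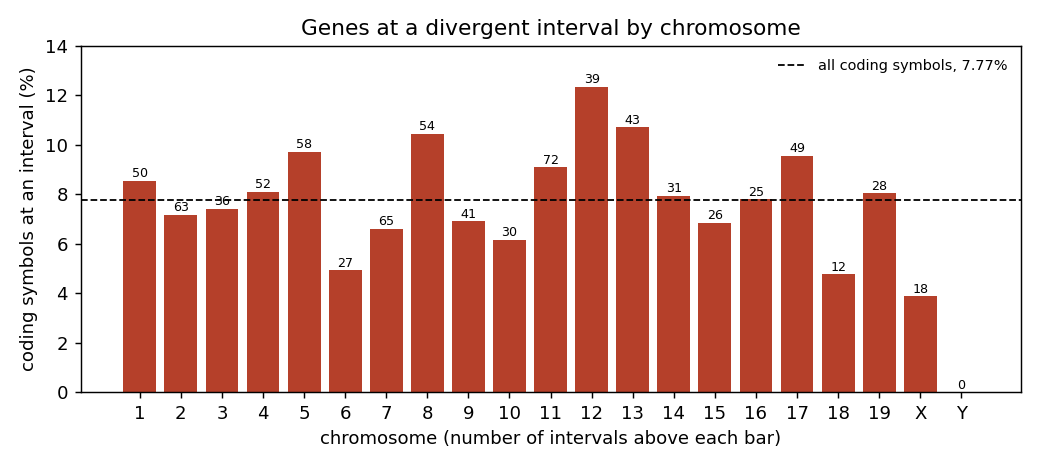
Percentage of the coding symbols of each mouse chromosome that stand at an interval of 0 to 1000 bases between divergent starts, with the number of intervals above each bar and the share over all coding symbols, 7.77%, as a dashed line. Chromosome 12 is highest and X the lowest of the chromosomes with any interval.

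The paired genes were less often very long or single-exon than other coding genes, while their median locus was of similar size. Their loci had a median of 17029 bases (quartiles 7789 and 35751), against 16633.5 bases in other coding genes and 18814 when the receptors were left out of these. Loci over 100000 bases made up 6.56% of interval genes and 11.4% of other coding genes. Single-exon genes made up 2.82% of interval genes and 10.8% of other coding genes, or 4.92% of these without receptors. Interval genes had a median of 9 exons, against 7 in other coding genes and 8 in these without receptors. Partners differed in size, as the longer locus of a pair was a median of 2.45 times the shorter (quartiles 1.5 and 4.83), and in 580 pairs (70.8%) both were at most 50000 bases. The minus gene was the longer in 391 pairs and the plus gene in 428. Leaving out the partner, interval genes had a median of 1.5 other loci within 50000 bases and 25.8% had none, against a median of 1 and 31.0% among other coding genes.

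By function, genes that maintain and read the genome and genes of mitochondria and translation stood at intervals more often than coding genes as a whole. Of 17 function lists with 1456 distinct symbols, 324 symbols (22.3%) were at an interval, beside 7.77% of all coding symbols. The lists were chosen with earlier results known, and no test was made on them. In 276 pairs (33.7%) at least 1 gene was on a list, and in 50 pairs both were. Pairs within the same list were few, 18 in all.

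DNA repair and damage response genes had the highest share, 37 of 105 (35.2%), with a median interval of 151 bases. Brca1, which acts in homologous recombination, was 151 bases from Nbr1, an autophagy receptor gene. Atm, the kinase that responds to double-strand breaks, was 375 bases from Npat, a regulator of histone gene transcription. Chek2, a checkpoint kinase, was 205 bases from Hscb, a co-chaperone of iron-sulfur cluster assembly. Mre11a, a nuclease of break repair, was 80 bases from Ankrd49. Wrap53 and Trp53, the p53 gene, were 108 bases apart and both on this list.

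Replication and cell cycle genes reached 19 of 97 (19.6%, median 121 bases). Mcm4, a subunit of the replicative helicase, was 465 bases from Prkdc, the catalytic subunit of DNA-dependent protein kinase. Mcm7, of the same helicase, was 137 bases from Ap4m1, an adaptor subunit of vesicle transport. Mcm8 lay 86 bases from Trmt6, a tRNA methyltransferase subunit, and Orc1, of the origin recognition complex, was 117 bases from Prpf38a, a splicing factor.

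Core and linker histones had 25 of 72 genes at an interval (34.7%, median 228 bases), mostly as pairs of histone genes. In 11 intervals an H2A gene faced an H2B gene, 10 of them on chromosome 13, with lengths of 163 to 280 bases and a median of 191. H2bc7 and H2ac7 were 173 bases apart and H2ac8 and H2bc8 were 179. On chromosome 3, H2ac20 and H2bc21 were 191 bases apart. H2bc9 and H3c7, an H3 gene, were 607 bases apart.

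Genes of ribosome assembly, the process that begins with Pol I transcription, had 36 of 117 members at an interval (30.8%, median 100 bases). Bop1, which acts in the maturation of the large ribosomal subunit, was 112 bases from Hsf1, the main heat shock transcription factor. Nop14 was 230 bases from Grk4, Nop16 156 bases from Higd2a, and Nol8 346 bases from Cenpp, a centromere protein gene. Noc4l and Ddx51 were 68 bases apart and both on this list. Polymerase and general factor genes had 19 of 84 (22.6%, median 104 bases), and genes of Pol I subunits were among them. Polr1a, the largest subunit of Pol I, was 290 bases from Ptcd3, a protein of the mitochondrial ribosome, and Polr1c lay 34 bases from Yipf3. Polr1d was 773 bases from Lnx2, and Znrd1 was 66 bases from Znrd1as.

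The genes of mitochondria were alike in their shares. The mitochondrial ribosome and translation list had 27 of 88 (30.7%, median 130 bases), and the respiratory chain list had 29 of 104 (27.9%) with a shorter median of 79 bases. Mrpl2 was 140 bases from Klc4, a kinesin light chain gene, Mrpl10 was 212 bases from Lrrc46, Mrpl13 95 bases from Mtbp and Mrpl14 130 bases from Tmem63b. Mrpl46 and Mrps11, of the large and the small mitochondrial subunit, were 41 bases apart. Among respiratory chain genes, Ndufa2 was 68 bases from Ik, a splicing factor gene, Ndufa4 was 378 bases from Phf14 and Ndufa5 453 bases from Asb15. Ndufa7 lay 9 bases from Rps28, a cytosolic ribosomal protein gene.

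Among genes of translation and RNA processing, tRNA synthetases and modifiers had 27 of 100 at an interval (27%, median 106 bases) and the spliceosome list 29 of 112 (25.9%, median 139 bases). Ears2 was 111 bases from Ubfd1 and Fars2 was 285 bases from Lyrm4. Hars and Hars2, the cytosolic and mitochondrial histidyl-tRNA synthetases, were the closest pair of related genes, at 3 bases. Snrpd3, a core protein of spliceosomal particles, was 69 bases from Gucd1, while Snrpd2 was 641 bases from Qpctl. Snrnp40 was 139 bases from Zcchc17 and Snrnp200 105 bases from 1810024B03Rik. Cytosolic ribosomal proteins were lower, 12 of 79 (15.2%, median 141.5 bases), with Rps18 134 bases from Vps52, Rps25 165 bases from Trappc4, and Rps27 66 bases from Rab13.

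Chaperones and heat shock factors had 22 of 98 (22.4%, median 235.5 bases). The Hsp70 genes Hspa1a and Hspa1l were 546 bases apart, and Hspa14 was 250 bases from Cdnf. Proteasome genes had 8 of 50 (16%, median 156.5 bases). Psmb9, a subunit of the immunoproteasome, was 225 bases from Tap1, a peptide transporter of antigen presentation. Psma2 was 204 bases from Mrpl32, Psma7 18 bases from Ss18l1, and Psmc2 109 bases from Dnajc2. Cilia and centrosome genes had 21 of 92 (22.8%, median 231 bases), with Ift20, of intraflagellar transport, 100 bases from Tnfaip1. Ift80 was 167 bases from Smc4, a condensin subunit, Ift122 was 186 bases from Mbd4, and Ift140 was 855 bases from Cramp1l.

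The remaining lists were near or below the share over all coding symbols. Chromatin and histone modification genes had 11 of 123 (8.94%), which is close to 7.77%, and the longest median, 374 bases. Setd3 was 453 bases from Ccnk, Setdb2 82 bases from Cab39l, Kdm1b 281 bases from Tpmt and Hdac3 570 bases from Rell2. Collagens and matrix genes had 2 of 52 (3.85%), namely Col4a4 and Col4a3, which face each other over 71 bases. Neither the 25 pluripotency factors nor the 59 hormones, cytokines and receptors of other tissues had a member at an interval.

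**Figure D3:**
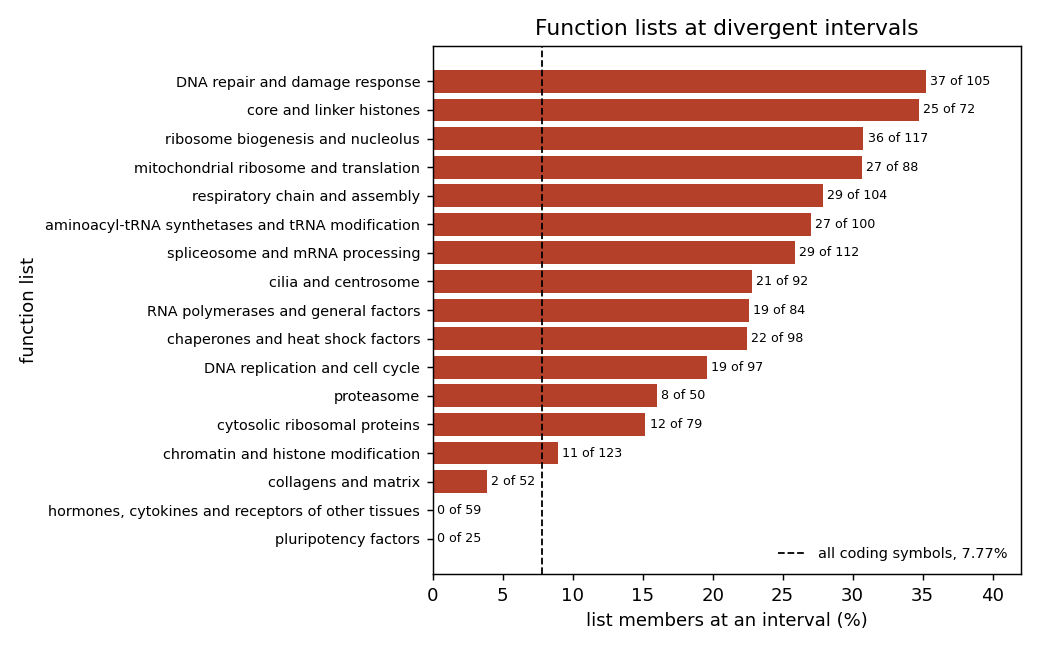
Percentage of each function list's members with a coding row that stand at an interval, with counts beside the bars and the share over all coding symbols, 7.77%, as a dashed line. Bars for DNA repair and histones reach furthest right, and the bottom 2 lists have no member at an interval.

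Name families showed the same division. Among large tandem families, none of 1107 olfactory receptor symbols, 343 vomeronasal receptors, 109 keratins, 70 defensins, 69 protocadherins and 39 Hox genes was at an interval, and 1 of 99 cytochromes P450 was. C2H2 zinc finger genes named Zfp had 20 of 395 (5.06%) and solute carriers 19 of 389 (4.88%). Genes with names in Wdr had 13 of 65 (20.0%) and Timm and Tomm genes of mitochondrial import 5 of 26 (19.2%). Coiled-coil genes named Ccdc had 24 of 137 (17.5%) and the Ddx and Dhx helicases 9 of 53 (17%). Both names matched the same family in 5 pairs. They were Tmem176b and Tmem176a (108 bases), Wdr83 and Wdr83os (216 bases), and Zfp942 and Zfp943 (94 bases). The others were Zfp944 and Zfp758 (52 bases), and Zfp668 and Zfp646 (864 bases). Families were matched by name only, so Wdr83os is counted through its name and not through its protein. A name stem was taken as the first capital and the lower-case letters right after it, if more than 1. It follows spelling and not relatedness, since histone gene names cannot match and Wdr83 with Wdr83os does. A shared name stem, a comparison chosen after seeing the data, was found in 20 pairs (2.44%). Of these, 8 (40%) were over 300 bases, as were 196 of the other 799 pairs (24.5%), and the median was 180.5 bases with a shared stem and 155 bases without.

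Of 67 candidate head-to-head pairs, 20 were intervals here. Besides those named with the function lists, they included Ranbp1 and Trmt2a (188 bases), Sirt3 and Psmd13 (84 bases), and Cdc45, a replication initiation factor, with Ufd1 (321 bases). Gart, an enzyme of purine synthesis, was 851 bases from Son, and Psme2, a proteasome activator subunit, was 640 bases from Rnf31. Palb2, the partner of Brca2, was 94 bases from Dctn5, Tsc2 54 bases from the base excision repair gene Nthl1, Toe1 174 bases from Mutyh and Mrps12 146 bases from Sars2. A further 9 candidate pairs overlapped at their starts and so were no members. Among them, Hspd1 and Hspe1, the mitochondrial chaperonins, shared 96 bases, Tk1 and Afmid 96, Col4a1 and Col4a2 22, Surf1 and Surf2 123, and Tbcb and Polr2i 124. Fen1 and Tmem258 shared 192 bases, Fancf and Gas2 253, and Ppat and Paics 277. In 7 pairs the starts were divergent but too far apart, with Tkfc and Ddb1 at 1338 bases, Col4a6 and Col4a5 at 1342, Psmb1 and Tbp at 1611, and Iars2 and Bpnt1 at 2757. Zar1l and Brca2 were 4461 bases apart, Pcna and Cds2 9967, and Oplah and Exosc4 20107. Rad17 and Taf9 were 281 bases apart, and Rad17 was paired here with Ak6 at the same distance.

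Base composition was not used to choose the intervals. A RefSeq promoter sequence of GRCm38.p6, running from 250 bases before to 50 after the start, had the same start as the table for 1373 of the interval genes, 683 on plus and 690 on minus. Median GC content was 62.7% for plus genes and 62.7% for minus genes at an interval, against 56.0% for coding genes at none and 57.3% for these without receptors. The CpG ratio (observed over expected CpG) had medians of 0.864 for plus genes and 0.860 for minus genes. It was 0.549 for coding genes at none and 0.606 for these without receptors. GC content above 55% with a CpG ratio above 0.6 was met by 76.0% of plus and 75.8% of minus windows. The share was 39.3% of windows at no interval and 42.8% of these without receptors. Read the other way, 1042 of 6972 such rich windows (14.9%) belonged to an interval, against 331 of 9504 other windows (3.48%). The windows of a pair overlap where the interval is short, so the plus and minus values share bases.

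Composition followed length. Plus genes at intervals of at most 100 bases had a median GC content of 65.3% and rich windows in 90.6% (233 intervals). GC content was 62.3% and rich windows 73.5% at over 100 and up to 300 bases (287 intervals), and GC content was 59.0% and rich windows 60.1% at over 300 bases (168 intervals). GC content and CpG were higher just before the start than at the far end in all groups, with a smaller change at intervals than elsewhere. At intervals GC content first fell slightly, to 60.8% for plus and 60.4% for minus genes at 200 to 175 bases before the start. In the first 25 bases of the window, GC content was 61.5% for plus genes and 61.4% for minus genes, against 49.7% for genes at no interval. In the last 25 bases before the start it was 65.2% for plus and 64.9% for minus genes, against 60.8% for genes at no interval. CpG dinucleotides per 100 bases at the far end numbered 7.46 for plus and 7.66 for minus genes, against 3.14 for genes at no interval. Next to the start they numbered 9.77 for plus and 10.1 for minus genes, against 6.89 for genes at no interval. At the far end, a window of a short interval already lies inside the partner gene.

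**Figure D4:**
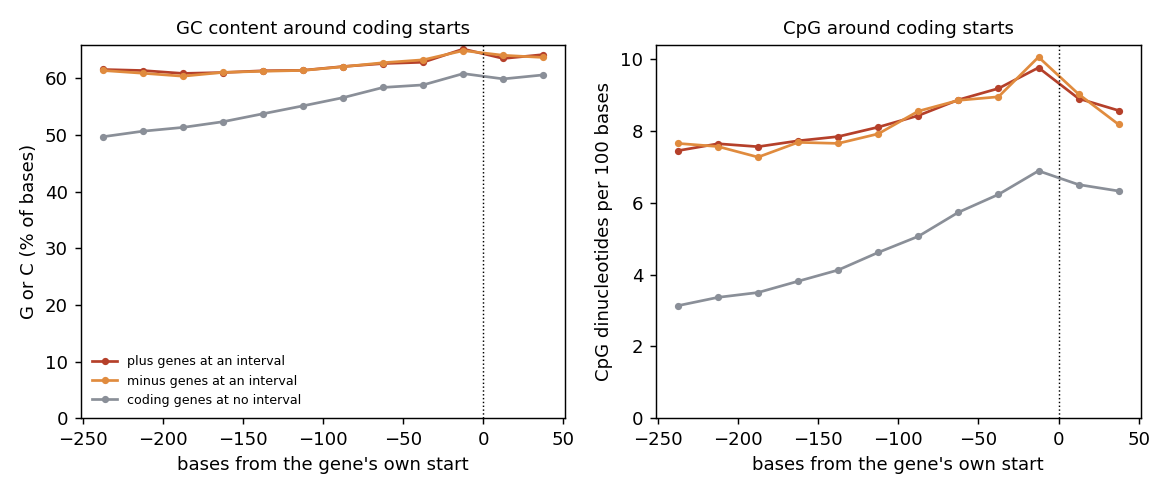
GC content (left, % of bases) and CpG dinucleotides per 100 bases (right) in steps of 25 bases along the promoter window, for plus genes at an interval, minus genes at an interval and coding genes at no interval; the dotted line is the gene's own start. The lines for interval genes lie above the grey line throughout, with the widest gap at the left.

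The high shares of several lists were also seen among rich windows alone, a comparison added after seeing the data. Of 709 list genes with a rich window, 205 (28.9%) were at an interval, beside 14.9% of all rich windows. The share was 23 of 45 (51.1%) for mitochondrial ribosome and translation genes, 28 of 62 (45.2%) for ribosome biogenesis and 23 of 54 (42.6%) for DNA repair. Other lists were lower, with 13 of 58 (22.4%) for chaperones and 7 of 35 (20%) for cytosolic ribosomal proteins. Proteasome genes had 3 of 20 (15%), which is close to 14.9%, and chromatin genes had 8 of 73 (11%). Histone genes differed, since 11 of 65 had a rich window and none of these was at an interval, while 22 of the 54 other histone genes were.

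A set of 10 short motifs was searched on both strands of the 300-base windows, as plain letters. A match is only an occurrence of the letters. As with composition, the windows of a pair overlap where the interval is short, so plus and minus shares count some of the same bases. A window at a short interval also holds the partner's start, which windows at no interval need not hold. Neither these shares nor those within rich windows below are corrected for that. The ETS site of GABPA (CCGGAAGT) was found in 15.5% of plus and 13.5% of minus windows at an interval, against 4.69% of windows at no interval and 5.51% of all 16476. The YY1 core (AAGATGGC) was in 8.78% of plus and 7.97% of minus windows, against 2.86% at no interval, with 3.32% of all windows. The KAISO-type letters (TCTCGCGA) were in 5.42% of plus and 5.22% of minus windows, against 1.26% at no interval, with 1.60% of all. The GC box of SP1 (GGGCGG) was in 68.7% of plus and 67.5% of minus windows, against 46.0% at no interval, with 47.9% of all. The TATA box (TATAAA) went the other way, with 4.54% of plus and 4.64% of minus windows, against 14.1% at no interval, and 13.3% of all. Without receptors the share at no interval was 11.8%. Placed 35 to 25 bases before the start on the gene's strand, a position chosen after seeing the data, TATAAA was found in 4 of 683 plus windows (0.586%) and in 435 of 15103 windows at no interval (2.88%).

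Smaller differences were seen for the remaining letters. The NRF1 core (GCGCATGC) was in 6.00% of plus and 6.67% of minus windows, against 3.51% at no interval, and the CRE (TGACGTCA) in 4.69% of plus and 4.20% of minus windows, against 2.22% at no interval. In all windows the NRF1 core had a share of 3.74% and the CRE of 2.40%. The CCAAT box (CCAAT) was in 43.5% of plus and 46.5% of minus windows, against 39.1% at no interval, with 39.6% of all windows. The E box (CACGTG) was in 10.1% of plus and 10.4% of minus windows, against 7.97% at no interval, with 8.16% of all. The heat shock element letters (GAANNTTC) were in 6.44% of plus and 6.23% of minus windows, against 7.32% at no interval, with 7.23% of all. The E box, CRE and heat shock element letters read the same on both strands, so each of their matches is a match on both. The KAISO-type and NRF1 letters do not, and were found in both directions in 13 (KAISO-type) and 11 (NRF1) of the 431 intervals that could be read whole. Their forward and reverse letters can overlap, so a single stretch can match both ways. These counts therefore do not show separate sites.

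**Figure D5:**
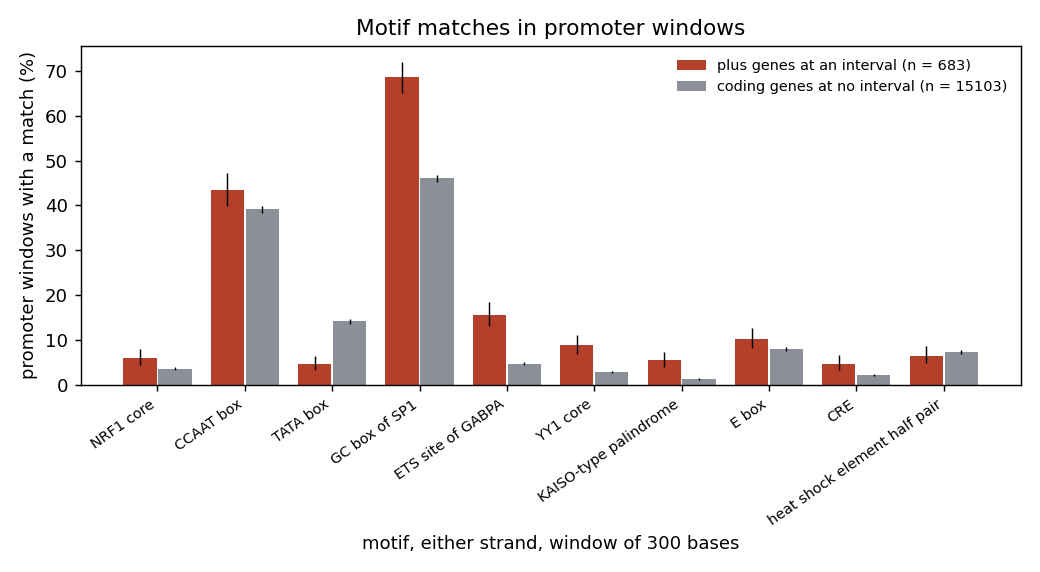
Percentage of 300-base promoter windows with at least 1 match to each motif on either strand, for plus genes at an interval (red) and coding genes at no interval (grey); lines are 95% Wilson intervals, which cover counting error only. The red bar is higher for the GC box, ETS, YY1 and KAISO-type letters and lower for TATAAA.

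Because composition differed, the shares were also taken within rich windows (519 plus genes at an interval and 5930 genes at none). There the order of the GC box turned round, with 75% at an interval against 81.2% at none. NRF1 letters also turned, with 5.39% at an interval against 6.14% at none, as did the E box, with 10.6% against 11.9% at none. The heat shock element letters turned as well, with 5.01% at an interval against 4.23% at none. Over all windows, their Wilson range for plus genes, 4.83% to 8.54%, already included the 7.32% at none. The rich windows at an interval with a match numbered 28 (NRF1), 55 (E box) and 26 (heat shock element). These small differences were not tested. The CCAAT box kept its order, with 40.1% at an interval against 35.6% at none, and so did the CRE, with 5.39% against 3.66% at none. The ETS site was in 16.6% of rich windows at an interval against 7.50% at none, YY1 letters in 9.83% against 4.33% at none and the KAISO-type letters in 6.94% against 2.53% at none. TATAAA was in 1.93% at an interval against 4.42% at none.

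Whole intervals of 30 to 250 bases could be read for 431 pairs. Their median GC content was 64.3%, with 66.7% at 30 to 100 bases (n = 190) and 61.4% above 100 bases (n = 241). A GC box lay between the starts in 222 (51.5%) and a CCAAT box in 159 (36.9%), and 90 held both. The CCAAT box was read only toward the plus gene in 58 intervals, only toward the minus gene in 59 and both ways in 42. Both ends of an interval are gene starts, so this split cannot show whether the box prefers a direction relative to a gene. The ETS site was in 38 (8.82%), TATAAA in 6 (1.39%), and 85 (19.7%) held none of the 10 motifs. YY1 letters were between the starts in 1 interval of 431 (0.232%), although 8.78% of plus windows held them. Of 62 matches in plus windows, 24 (38.7%) lay after the gene's own start and 34 lay wholly before it, a median of 120 bases away. Of 447 matches at genes with no interval, 246 (55%) lay after the start.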

How the data were processed

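The study measured Pol I by CUT&Tag in 4 libraries, and 1 annotation table of the whole series was used here, with no column for a library. The authors deposited it in 12-column BED layout. Its positions and exon numbers are other values than measurements, and the deposited BED score was 0 throughout. The submitters' processing notes name mm10 as build and list bedtools, deepTools, Bowtie2 and FastQC. Roles and versions were not given in the sources used here. The depth of the libraries is unknown, and libraries, counts and tests between groups were not analysed here.

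Intervals were computed in Python 3.11.15 (numpy 2.4.6, pandas 2.3.3), and drawn with matplotlib 3.10.9. Starts are printed counted from 1. The interval length is the number of bases between the 2 starts. The interval search and the motif search were tested on simulated data, where 0 of 729 intervals among 2000 starts and 0 motif answers differed from an exhaustive search. Binomial intervals (Wilson, 95%) came from scipy 1.17.1 and cover counting error only.

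The members and lists were chosen with earlier results of these data known. Genes are named by a rule, namely the 5 shortest and 5 longest intervals, the 3 pairs just outside, up to 4 members of each list in list order, the candidate pairs, pairs within a list or family, and up to 5 starts shared between intervals. The shared starts came to 6 and all are named. Sequences are those of the first 10 candidate pairs that are intervals of 30 to 250 bases with the RefSeq start, leaving out 1 chromosome. Of these, 9 are printed, and some items that the rule names are not reported here. Alternatives were other length limits, start choices, row choices and backgrounds.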

Additional observations from a re-analysis of the deposited data

How the results depend on the processing

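No paired analysis was possible because no column of the table carries a library or a replicate number. The number of intervals stayed within 1.5 times of 819 under the other limits and start choices, at 717 with 500 bases and 934 with 2000 bases, and left that range with rows that lack a coding part included, at 1351, of which 534 pairs were added and 817 kept. The share of coding symbols, 7.77%, was 6.80% with 500 bases, 8.86% with 2000, 10.3% over all symbols when non-coding rows were included, 7.07% with the most downstream starts and 9.48% with overlapping starts added. The median length, 155 bases, was 131 with 500 bases, 180 with 2000, 185 with the most downstream starts and 114 with overlapping starts counted as negative lengths. Promoter GC content of plus genes at an interval was 1.106 times that of all coding promoters, 1.119 times that of coding genes at no interval and 1.093 times when receptors were also left out, the last a background chosen after seeing the data. The CpG ratio was 1.441 times that of all promoters, 1.572 times that of genes at no interval and 1.426 times when receptors were also left out. Each choice changed the rows, genes, starts, length limit or background used. Positions come from 1 annotation with no replicate, so no error can be given for them.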

Other observations

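Divergent genes whose starts overlap were no intervals by the rule, and 179 pairs of 358 symbols (1.71% of all coding symbols) shared up to 1000 bases in this way, with each locus running on past the other's start. They shared a median of 277 bases (quartiles 183.5 and 489, range 3 to 981), and 26 pairs shared at most 100. Of the function lists, the highest counts at such overlaps were 8 of 100 tRNA synthetase and modification genes and 7 of 98 chaperones. The respiratory chain list had 6 of 104 and the DNA repair list 5 of 105, beside that share of 1.71%. Others were lower, such as mitochondrial ribosome and translation (1 of 88), cytosolic ribosomal proteins (1 of 79) and chromatin (1 of 123). No histone gene of 72 was there, and counts this small were not tested.

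Among the candidate head-to-head pairs, 14 had the plus start over 1000 bases before the minus start. A further 13 lay on the same strand, 2 lacked a coding row for a gene and 1 lay on different chromosomes. Same-strand pairs included H2ac4 and H2bc4, H2ac6 and H2bc6, H2ac18 and H2bc18, and H2ac21 and H2bc21, although H2ac6 stood at an interval of 239 bases with H2bc4, and H2bc21 at an interval with H2ac20. Hspb2 and Cryab, small heat shock protein genes, were among those with the plus start over 1000 bases before the minus start, at -1030 bases. They thus fell just past the limit used for overlapping starts. Whether each locus of such pairs runs on past the other's start was not examined.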
